A study of Mus musculus with 2 samples.

Results

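Fine cluster 7 is a group of CD8 T cells from the mouse colon lamina propria, picked for description as nearly all from 1 genotype. Its cells carried mostly the same T cell receptor (TCR) segments. Its members were the 592 cells given the value 7 in the deposited cluster column, out of 8562 cells in all. The working name of the cluster was killer receptor cells, after the markers Klra3, Klrg1, Klre1 and Havcr2. The data bore that name out only in part. Klrg1, Klre1 and Havcr2 were higher in cluster 7 than in the other Crep cells in 4 of 4 hashtags, but Klra3 was higher in 2 of 4, and Klrg1, Klre1 and Klra3 had lower mean levels in cluster 7 than in its neighbour, fine cluster 4.

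The cells came from Rag1 KO mice, which lack T and B cells of their own, that had been given wildtype naive CD4 T cells together with splenic CD8 T cells. In the group labelled Crep the CD8 donors were read as Bcl6fl/fl Cd8aCre mice, in which Cre under Cd8a control deletes the loxP-flanked part of Bcl6. In the group labelled Cren they were read as Bcl6fl/fl mice, with the flanked allele and no Cre. No source spells out this reading of the names. Mice were 8 to 12 weeks old when the transfer began, and CD8 T cells were taken from the colon lamina propria 6 to 10 weeks later. Each group carried 4 hashtag antibodies, and all cells were run in 1 pooled gene expression library with a 10x Genomics 5′ kit, so no barcode was shared between gene expression libraries. The hashtag is the replicate here. No source says that a hashtag was 1 mouse, so an SD over hashtags may in part be technical.

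CD8 T cells that respond to antigen divide into clones, each with 1 productive beta chain and usually 1 productive alpha chain. Effector CD8 T cells kill through granzymes and perforin and take up killer cell lectin-like receptors such as Klrg1, which restrain or trigger killing. Some patrol blood and vessels, marked by Cx3cr1 and S1pr5, while others stay in tissue, where Klf2 and its target S1pr1, the receptor for exit from tissue, are switched off.

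Cluster 7 held 82, 80, 25 and 383 cells in Crep hashtags 1 to 4 and 9, 1, 7 and 5 cells in Cren hashtags 1 to 4. These were 8.05%, 7.33%, 2.50% and 36.6% of the Crep hashtags' cells and 0.690%, 0.0905%, 0.639% and 0.556% of the Cren hashtags' cells. The mean share was 13.6% ± 15.5 in Crep and 0.494% ± 0.274 in Cren (SD, n = 4 each), and the ranges did not overlap. Crep hashtag 4 stood far above the others and held 67.2% of the Crep cells of the cluster; without it the Crep mean was 5.96%. The shares are a description with no test, because the clusters were made from the same expression values. The cluster was also picked as nearly all Crep with results known, so the gap between the groups restates that choice. Cluster 4 was less one-sided, at 18.1% ± 10.5 of cells in Crep and 4.58% ± 4.02 in Cren. At the coarser resolution the authors also deposited, 576 of the 592 cells of cluster 7 shared 1 cluster with 415 of the 967 cells of fine cluster 4.

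**Figure D1:**
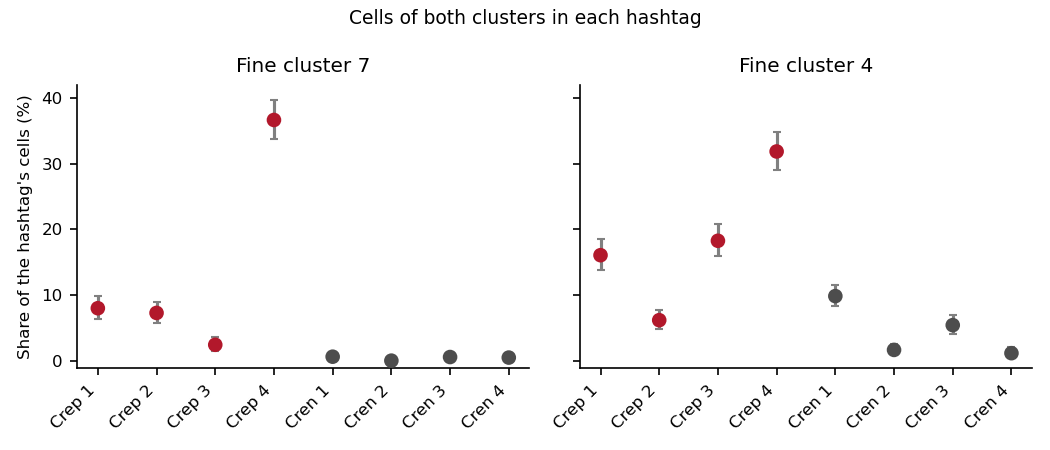
Share of each hashtag's cells (%) in fine cluster 7 (left panel) and fine cluster 4 (right panel), Crep hashtags in red and Cren hashtags in grey, with exact 95% binomial intervals that cover counting error only. Crep hashtag 4 reached 36.6% in cluster 7, while the 4 Cren hashtags stayed at or below 0.690%.

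Depth, as a mean over hashtags, differed by less than the spread over hashtags, but within hashtags it differed in both directions. In Crep hashtags 1 to 4 the median was 2815.5, 3175.5, 2316 and 2527 UMIs per cell in cluster 7. It was 2394.5, 3359.5, 2605 and 2132 in cluster 4, and 2721, 2985, 2903.5 and 2230 in all Crep cells outside cluster 7. The mean of these medians was 2709 ± 373 UMIs per cell in cluster 7, 2623 ± 528 in cluster 4 and 2710 ± 338 over all Crep cells outside cluster 7 (SD over 4 hashtags). The median share of ribosomal protein UMIs was 19.99%, 16.9% and 19.8% in that order, and that of mitochondrial UMIs 0.591%, 0.613% and 0.643%. The lower ribosomal share of cluster 4 moves with the comparison of the clusters, and its part in that was not tested. The cells were CD8 T cells by their defining markers. Cd8b1, a CD8 coreceptor chain, had a UMI in 93.7% ± 2.19 of cluster 7 cells and Cd4 in 1.25% ± 0.997. Of the natural killer and innate lymphoid list, Kit was at 0, and the list's summed level was 413 to 633 CPM in cluster 7 against 767 to 959 CPM in the other Crep cells. The B and plasma cell list summed to 0 to 13.7 CPM against 11.6 to 27.9 CPM, with Ighm and Igkc at 0. The part of these cells in the results was not tested. CPM stands for UMI counts divided by the library total, in parts per 1e6.

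The feature that the 4 markers do not show was the TCR. Its variable segments are genes of the same expression table and may have entered the clustering. Their shares in cluster 7 are therefore a description with no test. 5′ libraries read into the variable segments, which are rearranged DNA and pair as 1 beta (Trbv) and 1 alpha (Trav) segment per receptor. The 3 segments found most often in cluster 7 beside the widely spread Trbv12-2 are shown because they carry the pattern the members share. Each line gives the last 90 coding bases of the germline segment, from the GENCODE M21 transcripts on GRCm38, with the codon of the conserved cysteine that opens the CDR3 loop in capitals. Trbv13-3 lies at chr6:41130147-41130585, Trav19 at chr14:53845234-53845827, Trav3-3 at chr14:53665929-53666506 and Trbv13-2 at chr6:41121396-41121832, all on the plus strand.
Trbv13-3: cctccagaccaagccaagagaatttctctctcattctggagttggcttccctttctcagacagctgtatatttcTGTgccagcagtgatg
Trav19: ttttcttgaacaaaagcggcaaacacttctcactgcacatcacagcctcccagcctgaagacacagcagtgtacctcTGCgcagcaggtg
Trav3-3: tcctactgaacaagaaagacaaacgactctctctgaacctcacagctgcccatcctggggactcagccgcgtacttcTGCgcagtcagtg
Trbv13-2: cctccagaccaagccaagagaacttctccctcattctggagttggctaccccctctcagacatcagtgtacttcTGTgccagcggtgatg
Trbv13-2 is printed as the nearest relative, with 90.6% identical bases over the coding part against Trbv13-3. Trav3-3 shares 91.5% with Trav3-1 and 91.0% with Trav3-4. Reads could be split between such near copies, so the counts of these segments carry that uncertainty.

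Of cluster 7 cells with a UMI of any Trbv segment, 65 of 74, 59 of 73, 17 of 20 and 303 of 322 had Trbv13-3 in Crep hashtags 1 to 4. That was 86.9% ± 5.58 in cluster 7, 43.1% ± 22.4 in cluster 4 and 10.1% ± 2.36 in the other Crep clusters (SD, n = 4). The segment led in cluster 7 in every Crep hashtag, so the pattern did not rest on hashtag 4. Trav19 was found in 63 of 76, 60 of 74, 13 of 22 and 326 of 364 cluster 7 cells with a Trav UMI. The mean was 78.2% ± 13.2 in cluster 7, 45.4% ± 23.5 in cluster 4 and 4.82% ± 3.29 elsewhere. Trav3-3 reached 55.0% ± 2.16, 30.4% ± 10.4 and 8.37% ± 5.71 in the same order. Trav3-3 rested more on single UMIs and on cells with several segments: with at least 2 UMIs required it was 33.5% in cluster 7, and among cells with exactly 1 Trav segment 15.4%. Trbv12-2 was at 29.2%, 27.7% and 20.8%, and among cells with exactly 1 Trbv segment it was 3.02% in cluster 7.

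Both Trbv13-3 and Trav19 were seen in 643 Crep cells and in 1 Cren cell. Of the 643, 381 lay in cluster 7 and 235 in cluster 4, together 95.8%. Among cluster 7 cells with a UMI of both chains, the pair was present in 78.6%, 73.1%, 68.4% and 85.4% in Crep hashtags 1 to 4. In cluster 4 it was present in 17.1%, 30.2%, 24.4% and 72.2%, so hashtag 4 stood above the other 3 there. In the other Crep clusters it was 1.86% ± 1.67. The 22 Cren cells of cluster 7 did not show it: Trbv13-3 was seen in 3 of the 19 with a Trbv UMI, and Trav19 in 0 of the 13 with a Trav UMI. Among cells outside cluster 7 with both chains, the pair's share was 13.1% ± 17.8 in Crep hashtags, or 2.80% to 5.37% in the 3 other than hashtag 4, and 0.0472% ± 0.0943 in Cren hashtags. The pair was chosen after its values were seen, so it has no test. The files used here hold no CDR3 sequence, and cells that share segments were not shown to share a clone. Of the 570 Crep cells of cluster 7, 525 had a UMI of Trbv13-3 or Trav19 and 45 of neither. Joining segments of the alpha chain were seen in 65 of the cells, and Traj49 in 27 of these.

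**Figure D2:**
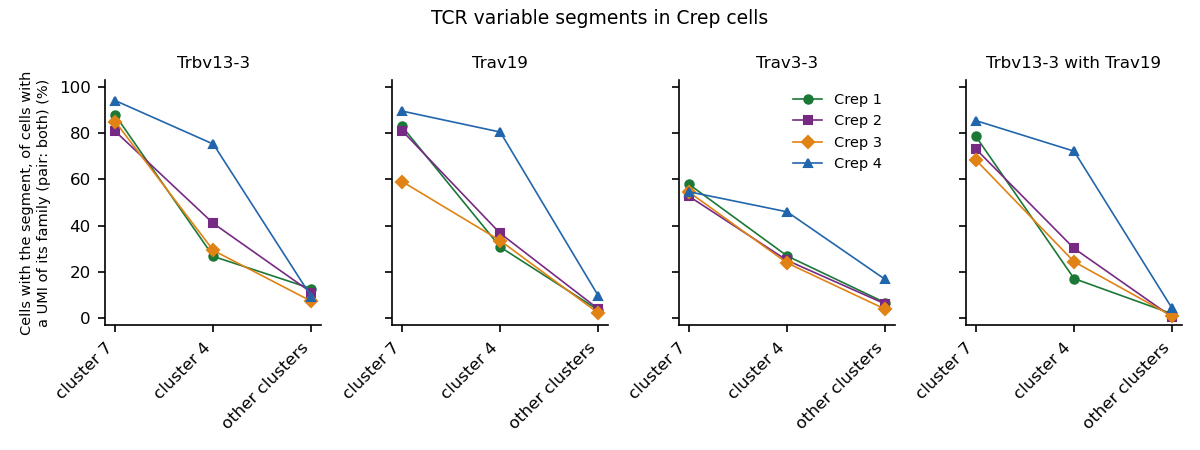
Share of cells (%) with Trbv13-3, Trav19, Trav3-3 and the pair of Trbv13-3 with Trav19, among cells with a UMI of the segment's family (of both families for the pair), in cluster 7, cluster 4 and the other clusters. Each line is 1 Crep hashtag; all 4 are highest in cluster 7, and hashtag 4 is the highest of the 4 in cluster 4.

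Set against all other Crep cells, cluster 7 had few genes that were far higher and more that were far lower. Ratios here are log2 of CPM + 10 in cluster 7 over CPM + 10 in the comparison cells of the same hashtag, which understates the change of low genes. They are descriptions with no test, since the clusters were made from this expression table. A gene was counted where its log2 ratio was at least 1 in size, with 1 sign, in each of the 4 hashtags. Of 2942 genes with at least 50 CPM on 1 side, 1 was counted as higher (0.034%) and 12 as lower (0.408%). With any size of ratio allowed, 12.3% of these genes were higher and 13.6% lower in all 4 hashtags.

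Among the receptors that named the cluster, Havcr2 (Tim-3), an inhibitory receptor, had 93.9, 137, 82.5 and 110.2 CPM in cluster 7 of Crep hashtags 1 to 4, against 22.1, 27.2, 24.4 and 56.2 CPM in the other Crep cells. Klrg1, an inhibitory lectin-like receptor that binds cadherins, had 556, 835, 646 and 554 CPM in cluster 7 against 211, 183, 226 and 423 CPM. In both genes cluster 7 was above the other cells in each hashtag, by the least in hashtag 4, where 333 of the 663 comparison cells were cells of cluster 4. The mean log2 ratio was 1.49 ± 0.48 for Havcr2 and 1.34 ± 0.72 for Klrg1 (SD, n = 4). Klre1, a lectin-like receptor of killer cells, had a ratio of 0.83 ± 0.55. Klra3 (Ly49C), a receptor for MHC class I with near copies in the Klra family, had 11.3, 97.6, 110.0 and 70.9 CPM in cluster 7 against 48.6, 19.4, 21.4 and 86.5 CPM, higher in hashtags 2 and 3 and lower in 1 and 4. A Klra3 UMI was found in 85 of the 570 Crep cells of cluster 7. Havcr2 had a UMI in 22.6% of cluster 7 cells and 7.88% of the other Crep cells, or 18.04% and 5.20% with each cell thinned to 2000 UMIs.

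Other genes that led on the high side were Eomes, a transcription factor of effector and memory CD8 T cells (1.12 ± 0.35), and Gzmk, a granzyme (1.04 ± 0.33). Gzmk had 1509.9, 1493, 1361 and 1729 CPM in cluster 7 against 677, 542, 756 and 1052 CPM in the other Crep cells. Gm32772, a predicted gene and the 1 gene counted as higher, had 67.6, 97.6, 55.0 and 189.9 CPM against 22.1, 17.8, 18.2 and 57.4 CPM. Anxa1, a phospholipid-binding protein of resolving inflammation (1.03 ± 0.39), Ptprj, a receptor phosphatase (0.92 ± 0.46), and Adam8, a surface protease (0.81 ± 0.12), were also among the 15 highest. With each cell thinned to 2000 UMIs, the mean ratio was 0.73 for Gm32772, 0.62 for Anxa1, 0.28 for Ptprj and -0.0013 for Adam8, while Eomes was at 1.34 and Fgl2 at 0.86. Fgl2, a fibrinogen-like protein that can be secreted by T cells, had 383, 412, 426 and 414 CPM in cluster 7 against 236, 245, 200.4 and 240.2 CPM, a narrow range on each side. Rnf130, Setbp1, Selenon, Serpinb6a and Asap2 completed the list, with mean ratios of 0.82 to 1.07. Without the Trbv13-3 cells, which left 2 hashtags, Eomes was at 0.50 and Fgl2 at 0.35. Of the 570 Crep cells of cluster 7, 489 had any Trbv UMI and 444 had Trbv13-3. Many of the cells left therefore had no Trbv UMI and may carry the segment unseen. The means above are over 4 hashtags, so the part of the segment in this shift was not tested. The cytotoxic granule list had a median of 0.04 over 15 genes in the table, beside -0.06 over all genes: 13 reached the filter, 5 were higher and 2 lower in all 4 hashtags, and 0 were counted. Gzmb, the main granzyme of effector cells, was among the higher ones at 0.44 ± 0.10.

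On the low side the mucosal integrin chain Itgae (CD103), which holds T cells at the epithelium, was nearly absent. It had 0, 3.61, 0 and 5.91 CPM in cluster 7 against 124, 133, 108 and 32.1 CPM in the other Crep cells. The receptor chains for the cytokines that drive interferon gamma were low as well: Il18r1 at -2.08 ± 0.68 and Il12rb2 at -1.88 ± 0.45. They were the 2 counted of 18 cytokine receptor genes, of which 12 reached the filter, with 3 lower and 1 higher in all 4 hashtags. The median over those 18 genes was -0.05, beside -0.06 over all genes in the table. Ifng itself, not counted, had 146, 134, 206 and 156 CPM against 381, 237, 277 and 264 CPM and was lower in 4 of 4 hashtags. Of 15 early response genes in the table, 11 reached the level filter and 10 of those were lower in all 4 hashtags, with 2 counted. The counted pair was Nr4a1, induced by TCR signalling (-2.05 ± 0.51), and Zfp36, which destabilises cytokine mRNAs (-1.57 ± 0.58). The median ratio of that list was -0.89, beside -0.06 over all genes in the table. The stem-like memory list had a median of -0.70, with 6 of its 9 genes in the filter lower in all 4 hashtags. Tcf7, the defining factor of stem-like T cells, had a mean ratio of -1.57 ± 0.80, and Il7r, the receptor for the survival cytokine IL-7, had 180.3, 307, 247 and 446 CPM against 665, 753, 777 and 805 CPM. Ifitm1, Fam241a, Actn2, Emb and Nfkbia were the other genes counted as lower beside Klf2 (-1.88 ± 0.46) and Cx3cr1 (-2.27 ± 0.69), whose levels are given against cluster 4.

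**Figure D3:**
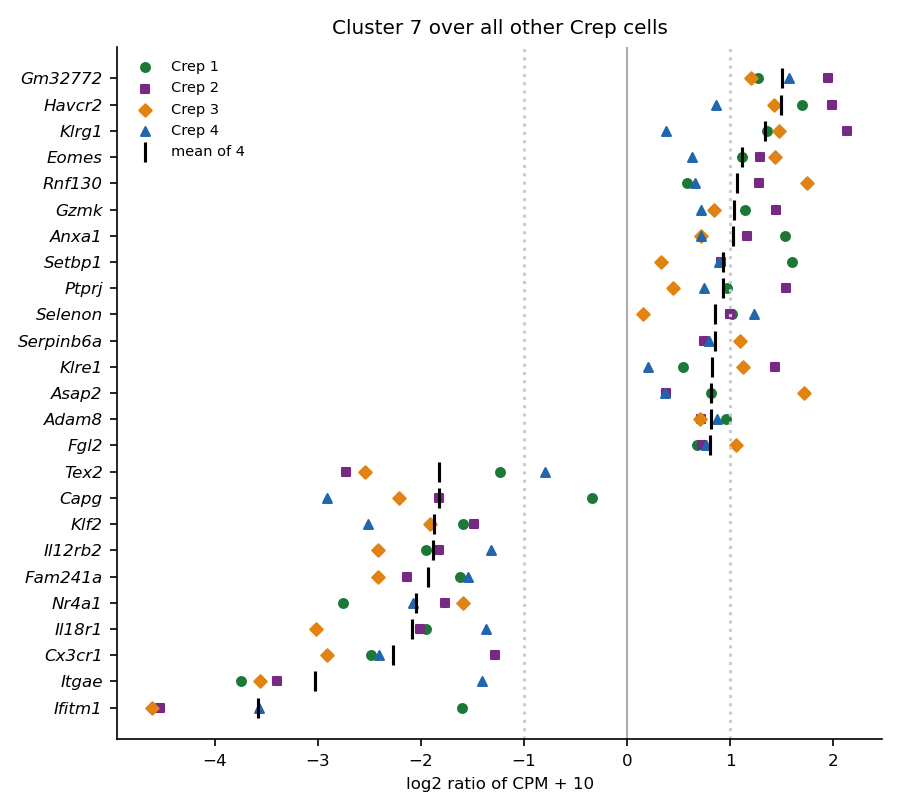
Log2 ratio of CPM + 10 in cluster 7 over all other Crep cells for the 15 highest and 10 lowest genes, 1 symbol per Crep hashtag, black bars for the mean of 4 and dotted lines at a log2 ratio of 1 and -1. Havcr2 averaged 1.49 and Itgae -3.03; Itgae in hashtag 4 lies apart from the other 3 hashtags.

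The comparison with cluster 4, the other large Crep cluster that carried the pair, showed where the killer receptor name does not separate the cells. Klrg1 was lower in cluster 7 in 4 of 4 hashtags, with 556, 835, 646 and 554 CPM against 665, 902, 705 and 795 CPM in cluster 4 (-0.25 ± 0.19). Klre1 had ratios of -0.69, -0.30, 0.00 and -0.49, and Klra3 ranged from -2.80 to 0.44. Havcr2 was higher in cluster 7 in 4 of 4 hashtags over all cells, against 44.5, 53.0, 42.8 and 74.9 CPM in cluster 4 (0.87 ± 0.30). The lectin receptor list as a whole had a median of -0.25 over 17 genes in the table, beside -0.03 over all genes. Of 2985 genes in the filter, 5 were counted as higher in cluster 7 (0.168%) and 20 as lower (0.67%), and with any size allowed 12.9% were higher and 16.3% lower in all 4 hashtags.

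Genes of circulating effector cells were counted among the lower ones, but Cx3cr1 and S1pr5 were low in several other Crep clusters too. S1pr5 averaged 0 CPM in clusters 0, 1, 2 and 3, 0.904 CPM in cluster 5 and 14.2 CPM in cluster 6. Cx3cr1 averaged 9.32, 8.56 and 9.40 CPM in clusters 0, 2 and 3, and 18.6, 39.8 and 69.5 CPM in clusters 1, 5 and 6. Cx3cr1, the fractalkine receptor, had 3.76, 3.61, 0 and 9.84 CPM in cluster 7 against 271, 127, 219.6 and 183 CPM in cluster 4. S1pr5, a sphingosine phosphate receptor, had 1 UMI in all 570 Crep cells of cluster 7, or 0.613 CPM over their sum (exact Poisson 95% interval 0.0155 to 3.41), against 129, 44.9, 123 and 111 CPM in cluster 4. S1pr1, the tissue exit receptor, had 41.3, 39.8, 27.5 and 32.5 CPM against 129, 131, 164 and 182 CPM. The ranges did not overlap for any of these 3 genes, which are among the 20 counted as lower (0.67% of the genes in the filter). The share of all genes with separate ranges was not taken. Klf2, the transcription factor that drives S1pr1, had 285, 199, 371 and 309 CPM in cluster 7 against 2589, 1583, 2601 and 2557 CPM, a mean ratio of -2.96 ± 0.15. Klf3, a related factor, was at -2.06 ± 0.80.

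Zeb2 and Tbx21, transcription factors of terminal effector cells, were lower in 4 of 4 hashtags but not by a log2 ratio of 1 in each, at -1.06 ± 0.39 and -0.91 ± 0.65. Gzma had 3019.9, 5331, 4742 and 5773 CPM in cluster 7 against 10787, 12993, 12173 and 8311 CPM, while Gzmb, at 4695, 3712, 3505 and 4264 CPM against 3453, 4077, 3324 and 3645 CPM, overlapped. Of the 17 terminal effector genes, 16 passed the filter, 11 of those were lower in all 4 hashtags, 1 was higher, and 3 were counted (Cx3cr1, S1pr5 and S1pr1). The signalling genes Rasgrp2 (-2.19 ± 0.35), Rap1gap2 (-2.18 ± 0.43) and Sgk1 (-2.10 ± 1.13) were also counted as lower. Il18r1, Zfp36, Klf2, Cx3cr1 and Nr4a1 were counted as lower against both the other Crep cells and cluster 4, comparisons that share the cluster 7 cells.

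On the high side, Rgs10, a brake on G protein signalling, had 180.3, 224, 110.0 and 175 CPM in cluster 7 against 13.3, 20.4, 17.9 and 28.4 CPM in cluster 4, the highest mean ratio at 2.59 ± 0.47. Of the inhibitory receptor list, 11 of 18 genes reached the filter, 5 were higher and 2 lower in all 4 hashtags, 0 were counted as higher and 1, Nr4a1, as lower, with a median of 0.07. Of the tissue residency list, 8 of 14 reached it, 4 were higher and 2 lower, and 0 were counted, with a median of 0.23. Ctla4 had 150.2, 137, 151 and 117 CPM against 53.4, 73.5, 55.3 and 45.2 CPM, and Cd160 had 173, 192, 289 and 151 CPM against 122, 53.0, 123 and 37.4 CPM. Both sets of values were separate, but these genes were named for their high ratios. The share of all genes with separate values was not taken. Lag3 was at 1.13 ± 0.61, and Cxcr3, a chemokine receptor of type 1 responses, at 1.08 ± 0.24. Without the Trbv13-3 cells, which left 2 hashtags, Lag3 was at 0.10 and Ctla4 at 0.71. As before, many of the cells left had no Trbv UMI, and the part of the segment was not tested. Pmepa1, a target and inhibitor of TGF-beta signalling (1.55 ± 0.24), Isg20, an interferon-induced exonuclease (1.63 ± 0.65), Inpp4b, a phosphoinositide phosphatase (1.41 ± 0.30), and Ckb, brain creatine kinase (2.27 ± 0.54), were counted as higher. Against all other Crep cells these genes did not stand out: Rgs10 was at 0.21 ± 0.53, Ctla4 at 0.01 ± 0.31 and Cd160 at -0.19 ± 0.58.

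**Figure D4:**
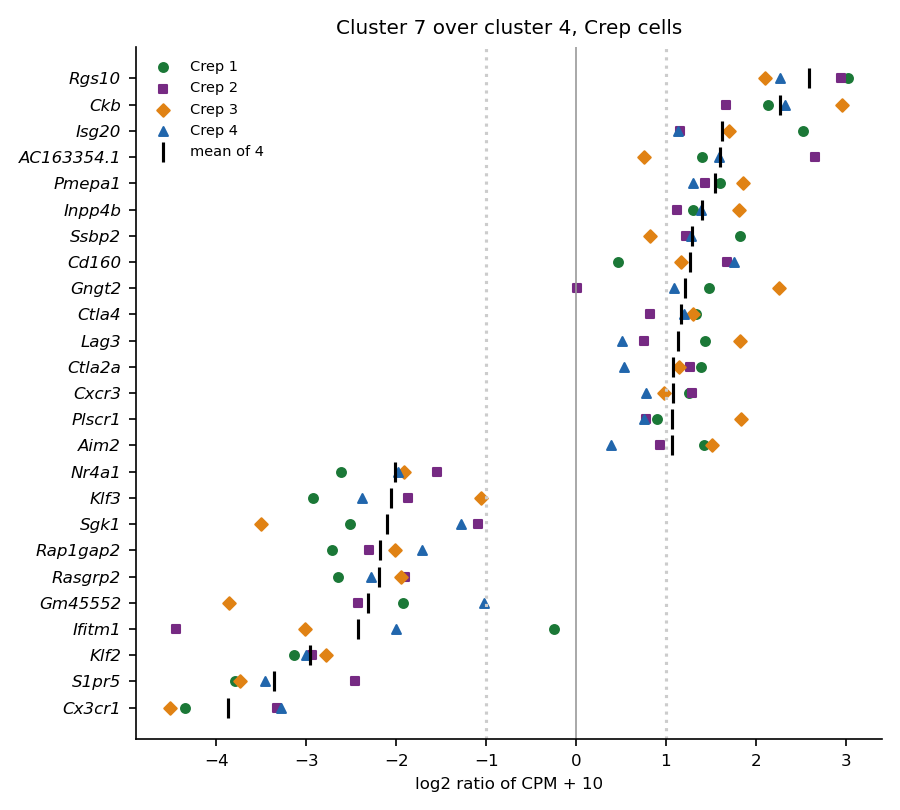
Log2 ratio of CPM + 10 in cluster 7 over cluster 4 in Crep cells for the 15 highest and 10 lowest genes, 1 symbol per hashtag, black bars for the mean of 4 and dotted lines at a log2 ratio of 1 and -1. Klf2 ranged from -3.14 to -2.78 over the 4 hashtags, while Ifitm1 was spread from -4.45 to -0.25.

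Restricting both clusters to cells with Trbv13-3 and Trav19 asked whether the differences were also present among cells with the same segments. This comparison was added after the data were seen. It left 55, 49, 13 and 264 cells in cluster 7 and 18, 16, 32 and 169 cells in cluster 4 of Crep hashtags 1 to 4. Klf2 had 260.2, 216, 412 and 300.2 CPM in cluster 7 against 3059, 1338, 2329.7 and 2272 CPM in cluster 4, and Cx3cr1 5.66, 0, 0 and 10.5 CPM against 270.0, 149, 277 and 160.0 CPM. The ratios were -2.86 ± 0.46 and -4.01 ± 0.74, and Rgs10 was at 2.76 ± 1.10 and Cd160 at 2.16 ± 0.66. Of the 25 genes counted in all cells, 13 were among the 18 counted here. Ifitm1, an interferon-induced membrane protein, averaged 0.70 ± 0.96 here against -2.43 ± 1.76 in all cells. Its ratios here were 2.07, 0.62, 0 and 0.09 in hashtags 1 to 4. In hashtags 2 to 4 it had 5.39, 0 and 10.5 CPM in cluster 7 against 0, 0 and 9.27 CPM in cluster 4. The positive mean therefore rested mostly on hashtag 1, and a reversal was not shown. Klrg1 (-0.70 ± 0.13) and Klre1 (-0.84 ± 0.21) were again lower in cluster 7. Havcr2 had 102, 140.2, 145 and 122 CPM in cluster 7 against 162, 44.6, 23.1 and 97.4 CPM in cluster 4, lower in hashtag 1 and higher in the other 3 (0.84 ± 1.26).

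Levels were ranked across clusters 0 to 7, the 8 fine clusters with at least 20 cells in 2 or more Crep hashtags. Clusters 8 to 11 did not reach that and are not in the ranking. Among these 8, cluster 7 had the highest mean level of Havcr2, Eomes, Gzmk, Gzmb and Lag3. It had the lowest of Cx3cr1, Itgae and Tcf7. Neighbours in that order were not always apart: the ranges over hashtags were separate from the next cluster only for Havcr2 and Eomes. Low Tcf7 and Itgae were shared with cluster 4, the next in order for both. Tcf7 ran from 3.94 to 55.0 CPM in cluster 7 and 12.2 to 42.3 CPM in cluster 4. Itgae ran from 0 to 5.91 CPM and 5.16 to 26.7 CPM, and Gzmk from 1361 to 1729 CPM and 932 to 1539 CPM, in the same order. Cx3cr1 ran from 0 to 9.84 CPM in cluster 7 and 0 to 17.8 CPM in cluster 2. Gzmb averaged 4044 ± 539.6 CPM in cluster 7 and 3983 ± 555 CPM in cluster 3, the next in order, and Lag3 135 ± 84.3 CPM in cluster 7 and 109 ± 15.2 CPM in cluster 0 (SD, n = 4 each). Klrg1 averaged 648 ± 132 CPM in cluster 7, second to 767 ± 105 CPM in cluster 4. Klf2 averaged 291 ± 71.4 CPM in cluster 7, near the Itgae-high clusters 0 and 2 (194 and 166 CPM) and far below cluster 4 (2333 ± 499.8 CPM). Among the 4 clusters with the lowest Klf2, Itgae averaged 2.38 CPM in cluster 7, 29.98 CPM in cluster 3, 252 CPM in cluster 0 and 325 CPM in cluster 2.

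**Figure D5:**
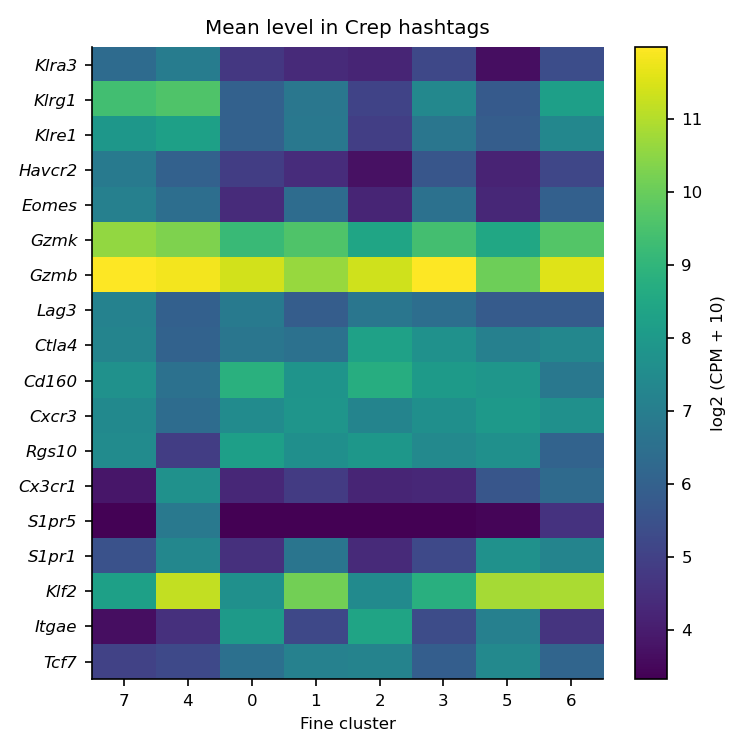
Mean level of 18 genes over the Crep hashtags with at least 20 cells in a cluster, as log2 (CPM + 10) on a colour scale, with cluster 7 in the first column and cluster 4 in the second. Klrg1 and Klre1 are high in both, Cx3cr1, S1pr5 and Klf2 in cluster 4 and not in cluster 7.

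The groups were compared outside cluster 7, on cells the cluster rule did not take, with UMIs summed per hashtag and edgeR's quasi-likelihood test. Of 9616 genes, 15 were higher in Crep (0.156%) and 11 lower (0.114%) at an adjusted p under 0.05. Of all 9616 genes, 928 had an unadjusted p under 0.05 in edgeR, and 93 of 9616 passed in DESeq2. The counts of named genes below are to be read beside those. Of the 15 genes named as highest in cluster 7 against other Crep cells, 1 passed in edgeR and 4 in DESeq2, and 5 had an unadjusted p under 0.05 in edgeR. The 1 in edgeR was Fgl2, with 232, 250.4, 204 and 239 CPM in Crep and 135, 144, 164 and 129 CPM in Cren, a log2 fold change of 0.69 (SE 0.09, adjusted p = 0.00164) with no overlap. Of the 10 lowest, 0 passed in edgeR, 1 had an unadjusted p under 0.05 and 1 passed in DESeq2. Of the 15 highest and 10 lowest against cluster 4, 0 passed in edgeR, 4 and 0 had an unadjusted p under 0.05, and 1 and 0 passed in DESeq2. Havcr2 had 21.7, 27.8, 24.8 and 56.0 CPM in Crep and 15.6, 10.2, 14.1 and 14.3 CPM in Cren, a log2 fold change of 1.19 (SE 0.30, adjusted p = 0.189) in edgeR, which did not pass; without the cells with Trbv13-3 and Trav19 it was 0.96 (edgeR adjusted p = 0.0444). Klrg1, at 1.30 (SE 0.55, adjusted p = 0.533) in edgeR, and Klra3, at 2.44 (SE 0.62, adjusted p = 0.264) in edgeR, did not pass. Tcf7, low in cluster 7, was also lower in Crep cells outside it, at -1.03 (SE 0.13, edgeR adjusted p = 0.00396). In summed cells, fewer cells with a transcript and less of it per cell cannot be told apart.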

How the data were processed

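The authors deposited raw UMI counts for 12798 genes in 8562 cells and an annotation with each cell's hashtag, group, cluster (the column at resolution 0.9) and percent of mitochondrial and ribosomal UMIs. The submitters' processing notes name mm10 as the build and, with no role given, the tools Seurat 4.3.0, bcl2fastq 2.20.0.422 and Cell Ranger 7.0.0. The lowest number of genes in a deposited cell was 500 and the highest mitochondrial share 3%; all cells were kept. No doublet caller was run; 5 of the 592 cells were not given their hashtag by both deposited classifiers, 3 of them called as doublets by 1. Cluster 7 sums held 72757 to 1016088 UMIs per Crep hashtag, so Crep hashtag 3 gives the least precise values. Intervals cover counting error only.

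Counts were summed per hashtag and cluster where at least 20 cells were present (10 for the cells with Trbv13-3 and Trav19), as CPM, and compared as log2 ratios with a pseudocount of 10 CPM and a filter of 50 CPM on 1 side. The genes named are the 15 highest and 10 lowest mean ratios with 1 sign in all 4 hashtags, the 4 markers and counted list members; ribosomal, mitochondrial and TCR genes (259) were kept apart. Segments were counted as present from 1 UMI. Crep and Cren were compared in edgeR 4.0.16 (TMM, filterByExpr, robust quasi-likelihood, Benjamini-Hochberg), with DESeq2 1.42.0 as an alternative; R 4.3.3 and Python 3.11.15 were used. Both rules were run on simulated counts, with counting error only for the ratios and 1 fixed dispersion for edgeR. Real hashtags vary in other ways, so this does not show how the rules fare on these data. The members and gene lists were chosen with earlier results of these data known. Replicate numbers were not taken to pair the groups, and no label says whether they do.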

Additional observations from a re-analysis of the deposited data

Results flagged for a closer look

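Among 67 sets of 4 hashtag values examined, 5 held 1 hashtag far from the other 3 by a gap test that chance alone passes in about 1 of 20 sets. The share of cells in cluster 7 was 36.6% in Crep hashtag 4, against 2.50% to 8.05% in the other Crep hashtags. The pair of Trbv13-3 and Trav19 outside cluster 7 was in 39.7% of Crep hashtag 4 cells with both chains, against 2.80% to 5.37% in the others. Itgae against the other Crep cells had a log2 ratio of -1.40 in hashtag 4, against -3.74 to -3.40. Serpinb6a against the other Crep cells was at 1.10 in hashtag 3, against 0.74 to 0.79. Plscr1 against cluster 4 was at 1.84 in hashtag 3, against 0.76 to 0.90.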

How the results depend on the processing

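Against the other Crep cells 13 genes were counted; the number was 40 at a 1.5-fold threshold, 33 without Trbv13-3 cells (2 hashtags only), 20 with clusters weighted equally and 13 to 20 with 1 Crep hashtag left out, the 20 without Crep hashtag 4. Against cluster 4 it was 25, with 65 at 1.5-fold, 70 without Trbv13-3 cells (2 hashtags) and 30 to 38 with 1 hashtag left out, the 38 without Crep hashtag 3. With cells thinned to 2000 UMIs, 11 and 24 genes were counted, among them 10 of the 13 and 15 of the 25. Crep against Cren outside cluster 7 gave 26 genes in edgeR, 93 in DESeq2, 59 with all cells, and 13 (without Crep hashtag 3) to 87 (without Cren hashtag 3) with 1 hashtag left out. With the replicate number as a block it was 90, but same-numbered hashtags had correlations of -0.06, 0.15, 0.18 and 0.10, so the numbers were not taken to pair them. Trav19 in cluster 7 was 61.0% in cells with exactly 1 Trav segment. The cause of these shifts was not tested. Havcr2 outside cluster 7 passed in DESeq2 (1.23, adjusted p = 0.0032) and without Crep hashtag 4 (0.86, edgeR adjusted p = 0.0417), and Klra3 in DESeq2 (2.52, adjusted p = 0.00314). The test within cluster 4 was not run, since 2 Cren hashtags held 20 cells or more.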

Other observations

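Of 20 interferon-induced genes set against cluster 4, 14 passed the filter, 6 were higher in all 4 hashtags and 1 lower, and 0 were counted. Over all genes in the filter, 12.9% were higher and 16.3% lower in all 4 hashtags. The list had a median log2 ratio of 0.30, beside -0.03 over all genes. Ly6a, a surface protein of activated T cells, had 1465, 1297, 1787 and 1763 CPM in cluster 7 against 618, 849, 796 and 1091 CPM in cluster 4. Irf7, a factor that amplifies the response, ran the other way, at -1.01 ± 0.09 (SD, n = 4).

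Actin, S100, annexin and galectin genes were lower against cluster 4 in all 4 hashtags for 12 of 19 and higher for 0, with 0 counted. Over all genes in the filter the shares were 16.3% lower and 12.9% higher. The median over these 19 genes was -0.27, beside -0.03 over all genes. Lgals1, a secreted galectin, had 3114, 3195, 2433 and 1721 CPM in cluster 7 against 4067, 5297, 4152 and 2763 CPM. Mki67, a marker of dividing cells, had a UMI in 3.71% ± 1.07 of cluster 7 cells, 3.72% ± 0.579 of cluster 4 cells and 3.87% ± 0.888 of all other Crep cells. Thinned to 2000 UMIs a cell, these shares were 3.28%, 1.78% and 2.03%, with 134, 248 and 852 shallower cells left out.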
